A study of Mus musculus with 15 samples.

Results

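The genes described here are 9 members of the cAMP signalling machinery for which striatal projection neurons are known: Adora2a, Gnal, Adcy5, Rgs9, Pde10a, Pde1b, Ppp1r1b, Arpp21 and Rasgrp2. They were taken as a fixed list, 9 of the 32285 genes counted, and each had counts in all 15 libraries, at least 13 of Adora2a and 76 of Ppp1r1b. Single-nucleus RNA sequencing (snRNA-seq) had been performed on micropunches of the dorsal hippocampal formation (dHF) from 15 female mice, with 1 library per mouse. The question was in which nuclei of a hippocampal punch these transcripts sat, how much of their signal was present without striatal-type neurons, and whether their levels differed between the groups.

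Of the 15 mice, 6 were nulliparous (NP), age-matched virgins. Another 4 had gone through mating, pregnancy, birth, lactation and care of a litter under standard housing (control RE, for reproductive experience). The other 5 had the same experience with limited nesting material and daily separation from the pups late in the nursing period (stress RE). Per the methods, all were wild-type C57BL6/J, and no group carried a transgene or received a drug; the labels gave no age. Each group is thus a comparison of whole life histories in an inbred strain, and the punches were taken by position, so that they also held tissue outside the dHF. The labels gave 3 batch numbers: batch 1 held 2 NP and 1 stress RE mice, and batches 2 and 3 held 2 mice of each group.

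In striatal projection neurons, dopamine and adenosine act on a shared second messenger. The D1 receptor and the adenosine receptor encoded by Adora2a couple through the olfactory-type stimulatory G protein alpha subunit (Gnal) to adenylyl cyclase 5 (Adcy5), which makes cAMP, whereas the D2 receptor inhibits it and Rgs9 shortens signalling through the inhibitory G proteins. The phosphodiesterases Pde10a and Pde1b degrade cyclic nucleotides, and protein kinase A, once activated by cAMP, phosphorylates DARPP-32 (Ppp1r1b), ARPP-21 (Arpp21) and the Rap1 exchange factor encoded by Rasgrp2. D1 and D2 receptors are carried by largely separate neurons, and Adora2a is known as a gene of the D2 type.

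After filtering, 123901 of 134019 barcodes were kept and placed in 28 classes or unnamed clusters by marker genes, with the 9 genes, Drd1 and Drd2 kept out of the clustering. Libraries held 40602582 to 96211264 UMIs, and pairs of libraries shared 6 to 47 barcodes, at most 0.461% of the smaller library. A class of 1848 nuclei (median 9163 UMIs) carried 8 of 8 markers of striatal-type projection neurons, among them Rarb at 1741 to 2644 CPM (counts of a gene scaled to the total UMIs of the class in a mouse) in the 8 mice that held at least 10 such nuclei, against a median of 33.7 CPM over the other classes. Markers of other cell types were mixed. Of the 3 cholinergic markers, Chat had 3.98 to 17.8 CPM, above a median of 0.135 CPM in the other classes, and Slc5a7 and Slc18a3 had at most 0.889 and 3.98 CPM. Of the 4 amygdalar markers, Crh was at 0 in the 8 mice, Prkcd and Dlk1 had at most 5.04 and 1.76 CPM, and Tshz1 had 30.7 to 46.6 CPM, near the median of 37.2 CPM in the other classes and above the striatal markers Isl1 (mean 14.6 CPM) and Six3 (20.6 CPM). The 3 hippocampal markers Slc17a7, Neurod6 and Prox1 reached 15.9, 6.16 and 31.7 CPM, with means below the medians of the other classes. Of the 8 oligodendrocyte markers, 5 had a mean above the median of the other classes, among them Mbp at 82.8 to 147 CPM against 57.7 CPM. The part of oligodendrocyte RNA in the levels of this class was not tested. The class was very uneven over mice. Stress RE mouse 75 held 823 of its nuclei, NP mouse 35 held 432, stress RE mouse 77 held 245, NP mouse 73 held 111, control RE mice 87, 72 and 66 held 91, 40 and 23, stress RE mouse 43 held 79, and the other 7 mice held 0 to 2 each.

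On GRCm38 (mm10, which the submitters named beside GRCm39), the GENCODE annotation placed Ppp1r1b at chr11:98348404-98357796 and Rgs9 at chr11:109225355-109298129. It placed Adcy5 at chr16:35154877-35305738, Pde10a at chr17:8525372-8986648, Pde1b at chr15:103503034-103530052 and Adora2a at chr10:75316877-75334784. Arpp21 lay at chr9:112065091-112235938 and Rasgrp2 at chr19:6399340-6415216. Of these 8 genes only Ppp1r1b and Rgs9 shared a chromosome.

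Promoter windows of 300 bases, from 250 before to 50 after a start site, were taken from RefSeq on GRCm38.p6 and were found for 6 of the 9 genes. Ppp1r1b, Gnal and Adora2a had none. Shown, with 1 window per gene, are the 3 genes with a window whose level in the striatal-type class stood highest over the next class. Arpp21 was added because it is also abundant in hippocampal neurons and had the only member window to hold the letters AGGTCA. Capitals mark TGACG (a cAMP response element half-site), AGGTCA (a retinoic acid response element half-site) and GGGCGG (a GC box), on either strand, so that a match to the other strand reads as its reverse complement.
Rgs9 promoter, chr11:109298132-109298431, minus strand: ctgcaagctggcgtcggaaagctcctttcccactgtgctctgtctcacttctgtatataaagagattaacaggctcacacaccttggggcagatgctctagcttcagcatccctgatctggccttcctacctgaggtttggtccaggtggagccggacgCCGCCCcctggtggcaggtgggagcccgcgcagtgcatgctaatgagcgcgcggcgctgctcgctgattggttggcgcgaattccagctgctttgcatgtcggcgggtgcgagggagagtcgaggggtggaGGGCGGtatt
Pde1b promoter, chr15:103502784-103503083, plus strand: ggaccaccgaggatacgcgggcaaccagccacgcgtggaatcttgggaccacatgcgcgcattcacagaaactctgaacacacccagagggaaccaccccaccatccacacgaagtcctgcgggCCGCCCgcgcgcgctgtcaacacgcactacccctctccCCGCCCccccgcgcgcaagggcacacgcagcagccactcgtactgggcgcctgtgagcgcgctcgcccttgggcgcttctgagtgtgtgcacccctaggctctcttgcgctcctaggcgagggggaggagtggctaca
Adcy5 promoter, chr16:35154614-35154913, plus strand: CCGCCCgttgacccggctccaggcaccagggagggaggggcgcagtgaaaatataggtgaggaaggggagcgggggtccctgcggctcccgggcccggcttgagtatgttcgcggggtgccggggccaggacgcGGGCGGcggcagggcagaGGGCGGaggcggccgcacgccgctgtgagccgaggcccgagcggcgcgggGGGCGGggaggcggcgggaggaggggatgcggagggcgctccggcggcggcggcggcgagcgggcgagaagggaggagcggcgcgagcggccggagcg
Arpp21 promoter, chr9:112217212-112217511, minus strand: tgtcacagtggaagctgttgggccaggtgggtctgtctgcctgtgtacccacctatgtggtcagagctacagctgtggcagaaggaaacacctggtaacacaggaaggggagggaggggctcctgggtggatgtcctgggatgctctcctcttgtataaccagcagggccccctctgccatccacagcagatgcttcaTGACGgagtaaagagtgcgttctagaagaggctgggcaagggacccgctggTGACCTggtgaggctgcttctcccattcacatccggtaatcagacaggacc
The windows shown of Rgs9, Pde1b and Adcy5 held GC boxes and neither half-site. Any further window of a gene is not shown. The Arpp21 window held TGACG beginning 52 bases before the start site. It also held AGGTCA, on the other strand, beginning 1 base before that site and running across it. The start site of this window lies inside the Arpp21 span given above and not at its upstream end. Among the 18 windows of the 6 genes, 7 held a GC box, 3 held TGACG, 1 held AGGTCA and 0 held the full element TGACGTCA. Of the 32851 promoter windows of the same length in the table, 35.7%, 20.8%, 16.3% and 1.79% held these letters. The matches describe the windows and say nothing of which factors act there.

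Adora2a, the adenosine receptor, had a larger share of its UMIs in the striatal-type class, 78.4%, than any other member. Its level there was 83.7 and 83.0 CPM in NP mice 35 and 73, 104, 64.6 and 72.4 CPM in control RE mice 66, 72 and 87, and 102, 103 and 99.7 CPM in stress RE mice 43, 75 and 77 (mean 89.1 CPM ± 15.3, SD, n = 8). Pericytes and smooth muscle came next at 49.1 CPM ± 31.4 (n = 15), and then vascular leptomeningeal cells at 10.2 CPM ± 5.36. Each of these steps was larger than the spread over mice in either class, although the ranges met. Every other class averaged at most 3.76 CPM. A UMI of Adora2a was found in 37.7% of striatal-type nuclei, in 10.7% of pericyte and smooth muscle nuclei and in 0.204% of oligodendrocytes, a class that should lack it. Median depths were 9163, 1893 and 2495 UMIs, and after thinning every nucleus to 1000 UMIs the shares were 8.88%, 6.12% and 0.0850%.

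Gnal, the G protein alpha subunit, and Adcy5, the cyclase it activates, were both highest in the striatal-type class. Gnal had 932 and 757 CPM in the NP mice, 888, 957 and 699 CPM in the control RE mice and 782, 749.7 and 909 CPM in the stress RE mice, in the order of mice given above, for a mean of 834 CPM ± 98.1. The groups overlapped throughout. Its other neuronal levels were substantial: unnamed cluster 31 had 326 CPM ± 97.8 (n = 9), thalamic excitatory neurons 257 CPM ± 24.0 (n = 15) and dentate granule neurons 207 CPM ± 16.7 (n = 15), against 24.1 CPM ± 5.80 in oligodendrocytes. Cluster 31 and thalamic neurons did not differ beyond their spread. Adcy5 had 844 to 1042 CPM in the striatal-type class (mean 936 ± 75.3) and followed a different order below it. Vascular leptomeningeal cells had 208 CPM ± 30.5, cluster 31 had 183 CPM ± 75.5, and oligodendrocytes, at 124 CPM ± 16.6, stood above dentate granule neurons.

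Rgs9, the regulator that accelerates GTP hydrolysis, had the widest step of the 9 between the striatal-type class and the next, which stood at 10.2% of its level. Its 8 values ran from 932 to 1115 CPM (mean 1034 ± 58.2). Cluster 31 followed at 106 CPM ± 102, with a range over mice from 0 to 269 CPM that made it indistinguishable from the next classes, and oligodendrocyte precursor cells had 50.5 CPM ± 6.90. A UMI of Rgs9 was found in 99.5% of striatal-type nuclei and in 1.63% of oligodendrocytes, or in 62.2% and 0.721% after thinning.

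The phosphodiesterases gave 2 patterns. Pde10a, which degrades cAMP and cGMP, had 4968 and 5127 CPM in the NP mice, 4353, 4902 and 5384 CPM in the control RE mice and 4316, 4511 and 5012 CPM in the stress RE mice (mean 4822 ± 386), with overlap of all 3 groups. It was also abundant elsewhere: MGE interneurons had 1370.4 CPM ± 207, thalamic excitatory neurons 1353 CPM ± 170, mossy cells 1331 CPM ± 382 and CA1 pyramidal neurons 1326 CPM ± 198, and these 4 did not differ from each other beyond their spread. Pde1b, the calcium and calmodulin-dependent enzyme, had 299 to 399.7 CPM in the striatal-type class (mean 356 ± 37.7), followed by dentate granule neurons at 68.0 CPM ± 6.31 and microglia at 63.3 CPM ± 11.5, which did not differ beyond their spread.

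Ppp1r1b, encoding DARPP-32, had 107 and 81.3 CPM in the NP mice, 112, 84.5 and 45.4 CPM in the control RE mice and 107, 158 and 148 CPM in the stress RE mice (mean 105 ± 36.3). The lowest value was that of control RE mouse 87, and the 3 stress RE values lay above the median of the control RE mice. Choroid plexus epithelium reached the same level, 109 CPM ± 27.5 (n = 13), and the 2 classes did not differ beyond their spread. Ependymal cells had 25.6 CPM ± 20.8, and astrocytes 9.12 CPM ± 1.99. Arpp21, the other phosphoprotein, was the only member with a class above the striatal-type one beyond the spread. It had 1029.6 to 1208 CPM in the striatal-type class (mean 1110.4 ± 65.5), below unnamed cluster 25 at 2048 CPM ± 179 and beside CA3 pyramidal neurons at 1041 CPM ± 82.6. Cluster 25 held 1917 nuclei, had Hs3st2 and Gm10635 among its leading genes and had Slc17a7 at 236 CPM.

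Rasgrp2, a calcium-responsive activator of Rap1, had its highest levels in striatal-type nuclei and in pericytes and smooth muscle. It had 123 and 105 CPM in the NP mice, 59.7, 72.1 and 96.9 CPM in the control RE mice and 93.2, 122 and 129 CPM in the stress RE mice (mean 100.3 ± 25.0). Pericytes and smooth muscle had 113 CPM ± 53.8 and did not differ from the striatal-type class beyond the spread, whereas endothelial cells had 62.7 CPM ± 20.3. Control RE mice 66 and 72 gave the lowest striatal values, from 15 and 29 counts of the gene.

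**Figure D1:**
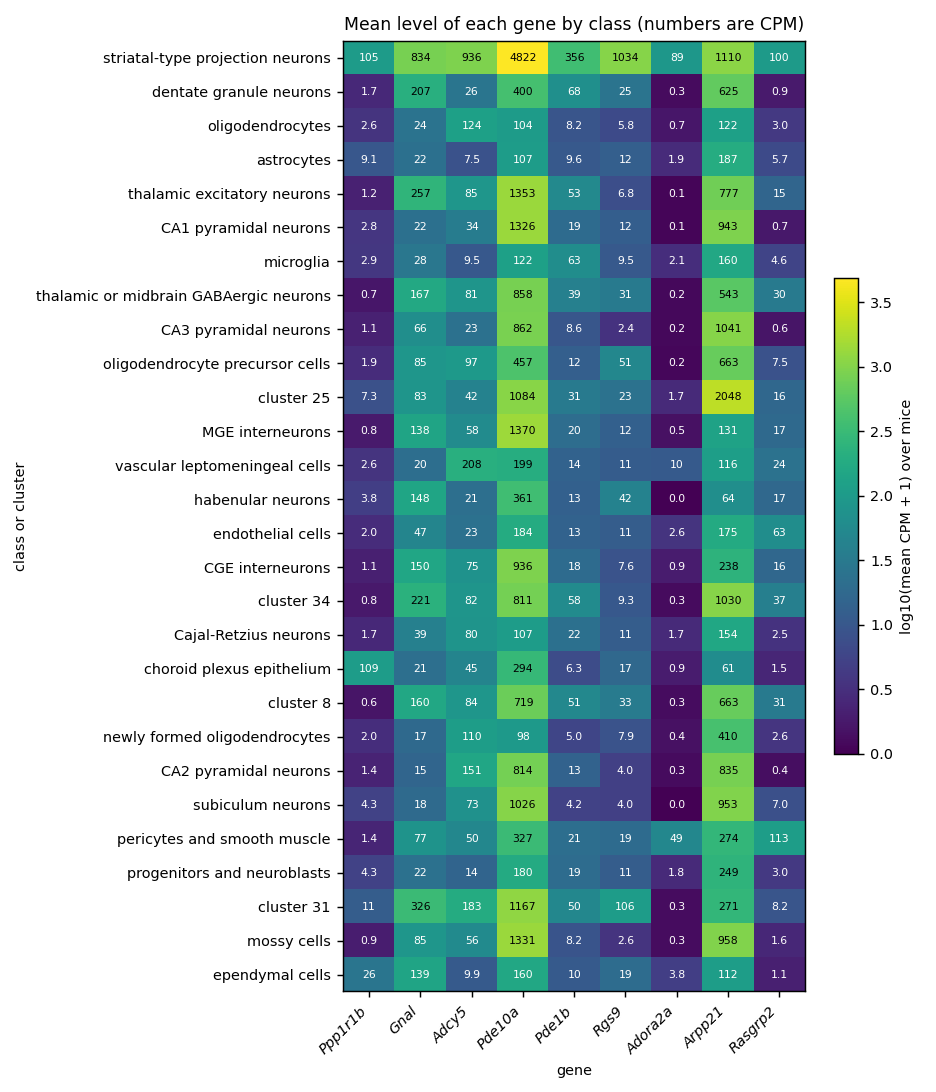
Mean level of each of the 9 genes (columns) in each class or unnamed cluster (rows), in CPM over mice that held 10 or more of its nuclei; colour is log10(mean CPM + 1). The striatal-type row is the highest for Gnal, Adcy5, Pde10a, Pde1b, Rgs9 and Adora2a, while Ppp1r1b matches it in choroid plexus, Rasgrp2 in pericytes and smooth muscle, and Arpp21 is higher in cluster 25.

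Because the class held only 1.93% of all UMIs, its part of each gene's signal differed widely. It contained 78.4% of the UMIs of Adora2a, 54.3% of those of Rgs9 and 47.2% of those of Ppp1r1b. For Adcy5 and Rasgrp2 the shares were 25.8% and 24.9%, and for Pde1b, Pde10a and Gnal they were 15.9%, 11.9% and 10.5%. Arpp21 had the lowest share, at 3.25%. Of the UMIs of Rasgrp2, thalamic or midbrain GABAergic neurons held 19.5% and thalamic excitatory neurons 17.5%, whereas pericytes and smooth muscle held 1.68%. Dentate granule neurons, which gave 32.9% of all UMIs, held 48.8% of the UMIs of Pde1b and 44.9% of those of Gnal. These shares are pooled over mice and differed between them. For Adora2a the class held 54.2% to 87.8% of the UMIs in the 8 mice with at least 10 striatal-type nuclei, 26.9% in stress RE mouse 90 and 0% in the other 6. For Gnal the highest share was 38.4% and for Pde1b 50.3%, both in stress RE mouse 75.

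To set expression apart from free RNA, libraries with and without striatal-type neurons were to be compared, using nuclei with at least 5 UMIs of Pde10a and at least 3 of Rarb as the gate. All 15 libraries held such nuclei, 53 to 907 each or 0.550% to 7.93% of nuclei, and of the 3227 gate nuclei 56.3% lay in the striatal-type class and 11.5% among thalamic excitatory neurons. The gate alone thus left no library without them. Libraries were divided instead, after this was seen, by whether at least 10 gate nuclei lay in the striatal-type class, which gave 8 libraries with and 7 without.

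For the members other than Rgs9, levels in a class outside the striatal-type one were present in libraries that held 0 to 2 striatal-type nuclei. Each gene is given in a class where it was relatively high, and a small part of free RNA could not be seen at such levels. Gnal in dentate granule neurons had 183 to 239.6 CPM in the libraries with and 192 to 223 CPM in those without. Pde10a in MGE interneurons had 1101 to 1511 and 1187 to 1939 CPM, and Pde1b in dentate granule neurons 62.2 to 72.98 and 57.4 to 82.7 CPM. In none of these classes did the libraries with striatal-type nuclei stand above the others. The same held for Adcy5 in oligodendrocytes (111 to 138 and 100.01 to 154 CPM), Arpp21 in CA3 neurons (916 to 1131 and 914 to 1225 CPM) and Ppp1r1b in choroid plexus (81.2 to 125 and 79.0 to 169.6 CPM). Rasgrp2 in pericytes and smooth muscle had 57.1 to 224 and 57.2 to 210.3 CPM, and Adora2a there had 10.9 to 78.7 and 10.9 to 140.03 CPM, on 1 to 7 counts per mouse. Over the 27 other classes, the ranges of the 2 kinds of library were separate in 1 class each for Ppp1r1b, Pde10a, Pde1b, Rgs9 and Arpp21 and in 0 classes for the other 4 genes. Counting a gene in a class where it had at least 15 UMIs, 5 of 203 such values of the 9 genes had separate ranges, against 0.637% of 395600 over all genes. That share pools classes with unlike numbers of libraries. Cluster 31 and the progenitors and neuroblasts had only 2 libraries without, where ranges separate more easily. A share over all genes in those classes alone was not taken, so the 5 are not read as an excess.

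Of these 5 exceptions, 2 lay in cluster 31, an unnamed cluster of 448 nuclei that carried the striatal markers at far lower levels and of which 17.9% passed the gate. Rgs9 there had 18.3 to 269 CPM in 7 libraries with striatal-type nuclei and 0 CPM in the 2 without, NP mice 27 and 63, whose depth allowed up to 16.9 and 26.4 CPM. Without its own gate nuclei, the cluster's Rgs9 level fell from 216 to 14.9 CPM in NP mouse 35, from 121 to 30.98 CPM in stress RE mouse 75 and from 269 to 0 CPM in NP mouse 73. Ppp1r1b in the cluster had 1.31 to 21.5 CPM in the 7 libraries and 0 in the other 2. The depth limits of those 2, 16.9 and 26.4 CPM, are about as high as these values, so their zeros do not show a lower level. In mice 35, 75 and 73 most of the cluster's Rgs9 level was thus lost with its gate nuclei. The gate picks nuclei by Pde10a and Rarb, so a fall of another striatal gene without them is no separate support. The other exceptions were Pde10a and Pde1b in progenitors and neuroblasts, where only 2 libraries without had enough nuclei, and Arpp21 in choroid plexus, which was lower in the libraries with striatal-type nuclei (24.6 to 60.8 against 67.2 to 130.4 CPM).

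In oligodendrocytes, the highest value of Ppp1r1b, Pde1b, Adora2a and Rasgrp2 was that of mouse 75 and the highest of Rgs9 and Pde10a that of mouse 35, and the part of striatal-type nuclei in these values was not tested. In stress RE mouse 75, which had the most striatal-type nuclei, oligodendrocytes had 14.7 CPM of Ppp1r1b, on 97 counts, against at most 1.72 CPM in the 7 libraries without. The excess over their median was 8.76% of the level of the gene in that mouse's striatal-type nuclei. For Rgs9 the values were 16.1 against at most 5.28 CPM, an excess of 1.32%. For Adora2a they were 3.95 against at most 0.430 CPM, an excess of 3.82%, where oligodendrocytes of all 15 mice together held 61 UMIs. For Pde10a and Arpp21 the sign was the opposite, with oligodendrocyte levels 0.908% and 6.46% of the striatal level below the median of the libraries without. In NP mouse 35, with the second most, oligodendrocytes had 6.18 CPM of Ppp1r1b, 17.0 CPM of Rgs9 and 1.74 CPM of Adora2a.

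Microglia of mouse 75 gave the same order, with 19.6 CPM of Ppp1r1b against at most 1.50 CPM in the libraries without. Rgs9 had 36.3 CPM there against at most 7.599 CPM, and Adora2a 9.06 CPM against at most 3.98 CPM. These values rest on few counts. Microglia of all 15 mice together held 32 UMIs of Ppp1r1b, 107 of Rgs9 and 23 of Adora2a. In dentate granule neurons of mouse 75, Ppp1r1b was at 4.71 CPM against at most 2.74 CPM, and Rgs9, at 29.4 CPM, lay within the range of the libraries without. In oligodendrocytes the ranges of the 8 libraries with and the 7 without overlapped for all 9 genes, and over all genes tested there 0.0326% had ranges that did not overlap. With libraries divided at 1 nucleus, or with doublets kept, 0 members had separate ranges there, against 0.076% and 0.0264% of all genes.

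Over the 15 mice, the oligodendrocyte level of Adora2a on the log2(CPM + 1) scale went with the share of gate nuclei (Pearson r = 0.931, p = 3e-05 by 100000 permutations, two-sided; Spearman rho = 0.778, p = 0.000920). These Adora2a levels rest on 61 UMIs in 29869 oligodendrocytes of the 15 mice. Their median over mice was 0.262 CPM and their highest value 3.95 CPM, so most points lie near 0. Adjusted over the 18419 genes tested, the p of Adora2a was 0.111, and 0 genes passed in either direction, 0% of those tested. The smallest p these permutations can give is 1e-05, which 1 gene reached, and at least 4 genes would have had to reach it for any at that p to pass, so the count of 0 is limited by the number of permutations. An unadjusted p under 0.05 was found for 1309 genes, and the median r was 0.0926. Rgs9 had r = 0.850 (adjusted permutation p = 0.123, rho = 0.682 with p = 0.00633), Ppp1r1b r = 0.877 (adjusted p = 0.360 by permutation, rho = 0.396 with p = 0.145) and Rasgrp2 r = 0.737 (adjusted p = 0.680 by permutation, rho = 0.639 with p = 0.0118). The other 5 genes lay between -0.30 and 0.49. The gate uses a member, Pde10a, whose own r was -0.06. Without mice 75 and 35, which lay farthest from the median share, r was 0.772 for Adora2a, 0.696 for Rgs9, 0.534 for Ppp1r1b and 0.392 for Rasgrp2 (n = 13), so the last 2 rested largely on those mice. Within batch 2 (n = 6) r was 0.920 for Adora2a, 0.859 for Rgs9, 0.900 for Ppp1r1b and 0.577 for Rasgrp2, and within batch 3 (n = 6) it was 0.943, 0.873, 0.925 and 0.930; batch 1 held too few mice. In exact permutation tests the 4 unadjusted p-values were 0.05, 0.0250, 0.0458 and 0.208 in batch 2 and 0.0792, 0.00972, 0.0458 and 0.00139 in batch 3. These 4 genes had the highest r over the same 15 mice, and the batches still hold mice 35 (batch 2) and 75 (batch 3). No share over all genes was taken within batches, so these values are a description and no separate support.

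**Figure D2:**
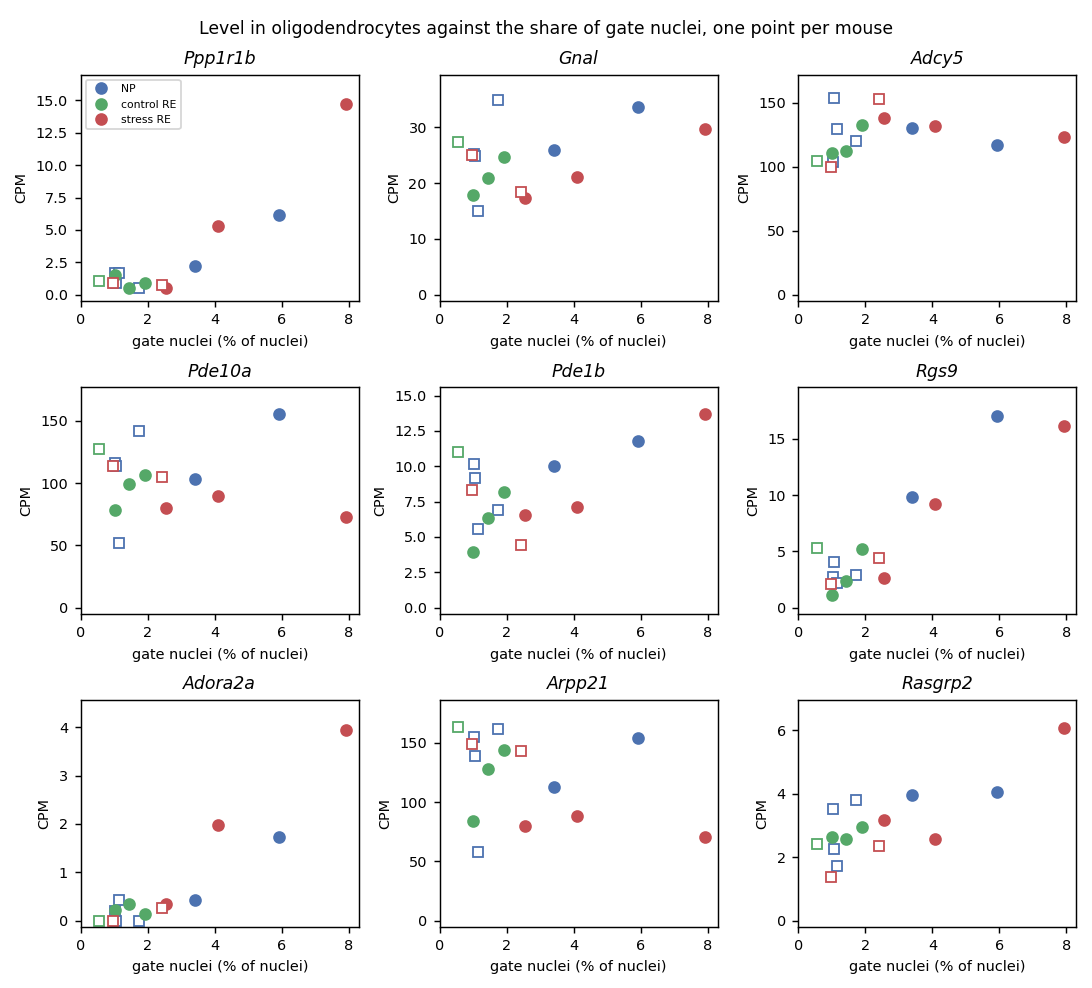
Level of each gene in oligodendrocytes (CPM) against the share of nuclei that passed the gate (% of nuclei kept), with 1 point per mouse coloured by group; filled circles are libraries with at least 10 gate nuclei in the striatal-type class and open squares those with fewer. Ppp1r1b, Rgs9, Adora2a and Rasgrp2 are high in the mice at the right, stress RE mouse 75 (7.93%) and NP mouse 35 (5.92%). Adcy5 and Arpp21 show no such rise. Pde10a is highest in mouse 35 but in mouse 75 lies below the median of the open squares, and Pde1b is highest in mouse 75.

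Within the striatal-type class, nuclei with a UMI of Drd2 and none of Drd1 (792 nuclei, 791 of them in the 8 mice compared) were compared with those with a UMI of Drd1 and none of Drd2 (784 nuclei, 782 of them in those mice), summed per mouse, to ask whether the 9 genes differed between the D1 and D2 types. A further 37 nuclei had both receptors and 235 had neither. In an edgeR fit over 7041 genes with mouse as a block (n = 8 mice), 406 genes (5.77%) were called higher in Drd2 nuclei and 455 (6.46%) higher in Drd1 nuclei at an adjusted p under 0.05, and 4 of the 9 members were called higher in Drd2 nuclei and 0 higher in Drd1 nuclei. The median log2 fold change was 0.05 over the members and -0.0019 over all genes.

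Adora2a gave by far the largest difference of the 9. Drd2 nuclei had 192 and 187 CPM in NP mice 35 and 73, 243, 247 and 165 CPM in control RE mice 66, 72 and 87, and 241, 238 and 212 CPM in stress RE mice 43, 75 and 77. Drd1 nuclei were at 0 CPM in 5 of these mice and at 0.990, 1.03 and 3.24 CPM in mice 35, 75 and 87, on 6 counts in all against 1655. The ranges did not overlap, and the fitted log2 fold change was 8.01 (adjusted p = 2.35e-25 by edgeR), a size that rests on those 6 counts. The pooled counts per UMI differed 299.9-fold, with an exact 95% interval of 138-fold to 818-fold (Clopper-Pearson) that covers counting error only. A UMI of Adora2a was found in 83.7% of Drd2 nuclei, 0.638% of Drd1 nuclei, 45.9% of nuclei with both receptors and 4.68% of those with neither, at median depths of 8747, 9953, 12111 and 7902 UMIs. After thinning to 1000 UMIs the first of these were 20.5% and 0%, the latter over 784 nuclei.

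The other 3 called differences were far smaller than that of Adora2a. Gnal was higher in Drd2 nuclei in 8 of 8 mice, at 925 CPM ± 151 against 761 CPM ± 92.0, for a log2 fold change of 0.24 (standard error 0.05, edgeR adjusted p = 0.00159). Rasgrp2 was higher in 7 of 8 mice, at 115 CPM ± 22.8 against 86.6 CPM ± 30.3 (log2 fold change 0.35, standard error 0.08, edgeR adjusted p = 0.00367), with control RE mouse 87 the exception. Pde10a was also higher in 7 of 8 mice, at 5079 CPM ± 346 against 4615 CPM ± 456 (log2 fold change 0.15, standard error 0.04, edgeR adjusted p = 0.0169), with control RE mouse 72 the exception. The ranges of the 2 kinds of nuclei overlapped for all 3 genes, so the calls rest on the pairing within mice. Without control RE mouse 87 or stress RE mouse 43, Pde10a no longer passed (edgeR adjusted p = 0.0600 and 0.108), and without the block only Adora2a was called higher in Drd2 nuclei and 0 members higher in Drd1 nuclei, where 2.53% and 2.85% of all genes were called.

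The other 5 members were not called, and the fit bounds their difference. On the log2 scale the 95% interval was -0.15 to 0.17 for Ppp1r1b, -0.10 to 0.09 for Adcy5, -0.11 to 0.09 for Rgs9, -0.07 to 0.17 for Pde1b and -0.15 to 0.03 for Arpp21. Arpp21 was lower in Drd2 nuclei in 7 of 8 mice, at 1088 CPM ± 87.5 against 1128 CPM ± 65.0. Each of these intervals excludes a difference of 1 log2 unit in either direction. Those of Ppp1r1b and Pde1b include the 0.15 called for Pde10a, so the fit does not set these genes apart from Pde10a. Adcy5, for example, had 943 CPM ± 92.2 in Drd1 nuclei and 927 CPM ± 66.8 in Drd2 nuclei.

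**Figure D3:**
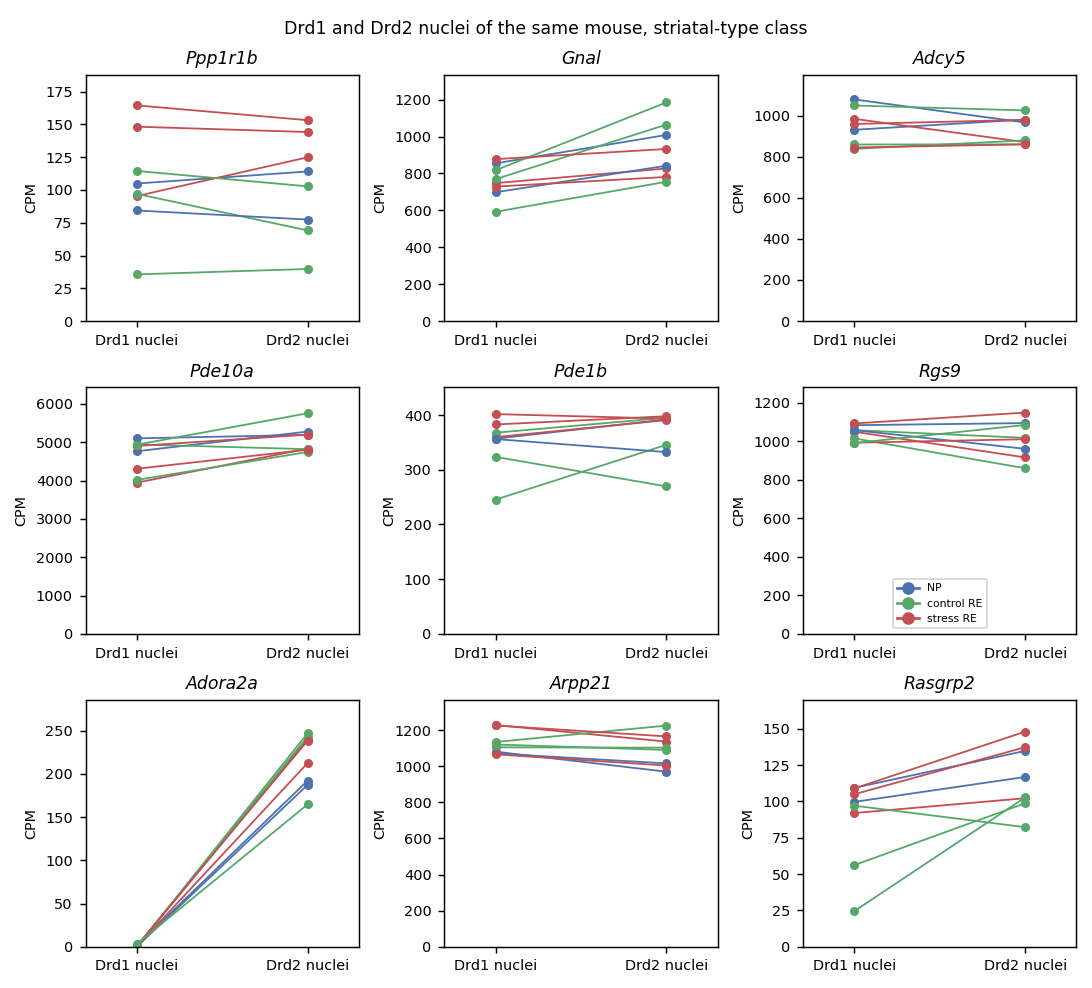
Level of each gene (CPM) in Drd1 and Drd2 nuclei of the striatal-type class, with a line for each of the 8 mice coloured by group. Adora2a rises from at most 3.24 CPM to at least 165 CPM in every mouse, Gnal rises in 8 of 8 mice, Rasgrp2 and Pde10a rise in 7 of 8, Arpp21 falls in 7 of 8 without being called, and the other 4 genes rise in 3 to 5 mice.

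A list of 50 further genes of the pathway gave the surroundings of the members. In the striatal-type class, the 5 with the highest level were Ppp3ca, a calcineurin subunit (2889.6 CPM ± 149.8), Pde7b (2038 CPM ± 176), Pde4b (1209 CPM ± 133), Rgs7bp (863 CPM ± 50.8) and Ppp2r2b (691 CPM ± 61.5). Of these only Pde7b, a cAMP phosphodiesterase, was highest in this class. Between Drd2 and Drd1 nuclei, 47 of the list could be tested. Of these, 16 were called higher in Drd2 nuclei and 4 higher in Drd1 nuclei, against 5.77% and 6.46% of the 7041 genes tested. The counts include Drd2 and Drd1, which set the kinds and are no finding. The list was chosen with earlier results of these data known. Among the largest of the other 18 differences were those of the phosphodiesterases Pde4d (log2 fold change 1.85) and Pde4b (1.69), Gnas, the other stimulatory alpha subunit (1.45), the inhibitory subunit Gnai1 (-0.98), Gnb5, the beta subunit that pairs with Rgs9 (0.64), the cyclase Adcy2 (-0.59) and Pde1c (0.56). Their edgeR adjusted p-values ran from 6.75e-20 to 0.0311, the largest being that of Adcy2.

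By group, 0 of the 9 members passed the test in the striatal-type class in any of the 3 contrasts, by edgeR or DESeq2, and 1, 2 and 0 had an unadjusted p under 0.05 by edgeR for control RE minus NP, stress RE minus control RE and stress RE minus NP. In each contrast edgeR called 0% of the 10813 genes tested in the class, with 382 to 1256 at an unadjusted p under 0.05. DESeq2 called 8 genes higher and 23 lower of 6398 with an adjusted p in stress RE minus control RE. In each of the other contrasts it called 0 of 22634. NP gave 2 mice, control RE 3 and stress RE 3 with at least 10 such nuclei. The nearest was Ppp1r1b, with 138 CPM ± 26.7 in stress RE and 80.5 CPM ± 33.3 in control RE mice, which differed by 0.90 as a log2 fold change (standard error 0.26, edgeR adjusted p = 0.278). The ranges met, since control RE mouse 66 had 112 CPM and stress RE mouse 43 had 107 CPM. Rasgrp2 had 115 CPM ± 19.1 in stress RE, 76.2 CPM ± 18.9 in control RE and 114 CPM ± 12.9 in NP mice (log2 fold change 0.47, standard error 0.20, for stress RE minus control RE, edgeR adjusted p = 0.411). Adora2a had 102 CPM ± 1.88, 80.2 CPM ± 20.6 and 83.3 CPM ± 0.507 in the same order (log2 fold change 0.35, standard error 0.17, edgeR adjusted p = 0.443). For the other 6 genes all differences between groups lay between -0.18 and 0.18 on the log2 scale.

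**Figure D4:**
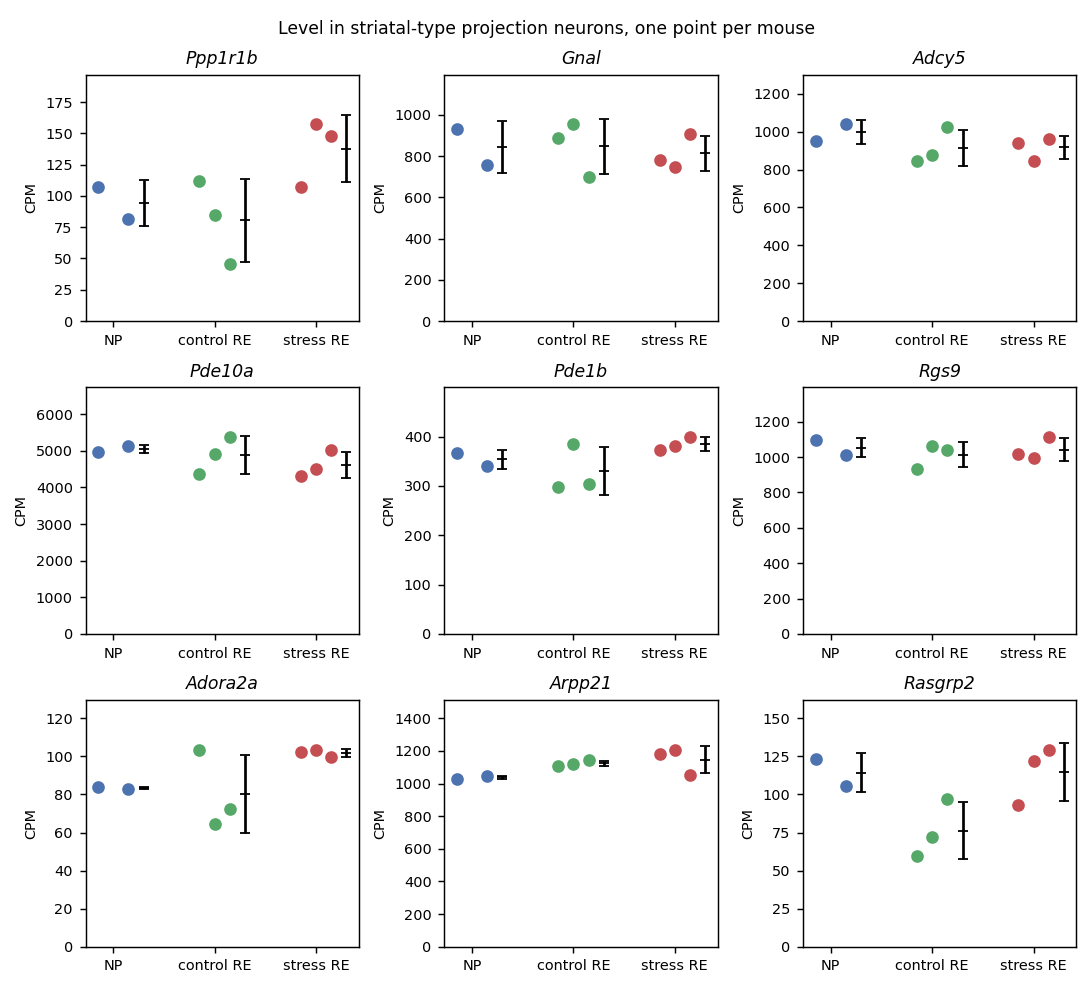
Level of each gene in striatal-type projection neurons (CPM), with 1 point per mouse by group, and the mean and SD of each group beside the points (2 NP, 3 control RE and 3 stress RE mice). Stress RE means of Ppp1r1b (138 CPM) and Rasgrp2 (115 CPM) stand above those of control RE (80.5 and 76.2 CPM) and the points of the groups lie close or overlap, whereas Gnal, Adcy5, Pde10a, Rgs9 and Arpp21 are nearly level.

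Over all 28 classes, 154 tests of a member in a class gave 0 calls in each contrast by edgeR, with 8, 9 and 2 at an unadjusted p under 0.05 for control RE minus NP, stress RE minus control RE and stress RE minus NP. Over all genes and classes, 0%, 0.00243% and 0% of 246795 tests were called, and 8172, 7197 and 9204 had an unadjusted p under 0.05. The median log2 fold change of the members was -0.06, 0.05 and -0.04. Besides Ppp1r1b in the striatal-type class, the members with the smallest unadjusted p were Pde10a in vascular leptomeningeal cells, at 105 CPM ± 28.0 in stress RE, 219.8 CPM ± 126 in control RE and 263 CPM ± 189 in NP mice, and Pde10a in choroid plexus, at 372 CPM ± 201 in stress RE against 191 CPM ± 80.1 in control RE mice. In a fit with no filter on low counts these 3 were called in stress RE minus control RE, with edgeR adjusted p-values of 0.000422, 0.00211 and 0.00292, where 0.0961% of all tests were called. The same fit called 0 members in control RE minus NP, against 0.0267% of all tests, and 1 in stress RE minus NP, Pde10a in vascular leptomeningeal cells, against 0.0435%.

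In whole punches, the sums over all nuclei, fewer nuclei of a type and less RNA per nucleus cannot be told apart. No member was called in any contrast by edgeR, against 0.00473% of 21160 genes for control RE minus NP and 0% for each of the other contrasts, and 1, 2 and 1 members had an unadjusted p under 0.05. Over all genes, 830, 188 and 843 had an unadjusted p under 0.05. Ppp1r1b had 1.57, 1.72, 3.15, 11.5 and 24.5 CPM in the stress RE mice, 1.31 to 2.35 CPM in the 4 control RE mice and 1.11 to 13.3 CPM, median 3.56, in the 6 NP mice. The 3 highest values were those of mice 75, 77 and 35, which held the most striatal-type nuclei.

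The stress RE minus control RE difference of Ppp1r1b was a log2 fold change of 1.97 (standard error 0.79, edgeR adjusted p = 1.00). With the striatal-type nuclei left out of the sums it was 1.08. Adora2a gave 2.46 (standard error 1.18, edgeR adjusted p = 1.00) and 1.17 without those nuclei, Rgs9 gave 1.20 and 0.18, and Rasgrp2 gave 0.74 and 0.25. Without stress RE mouse 75, with the striatal-type nuclei kept, the differences were 1.13 for Ppp1r1b, 1.44 for Adora2a, 0.59 for Rgs9 and 0.41 for Rasgrp2. For Rgs9, NP mice had 15.0 to 106 CPM, control RE mice 16.7 to 30.7 CPM and stress RE mice 16.5 to 129 CPM. Without the striatal-type nuclei these ranges were 14.9 to 23.8, 13.5 to 18.7 and 13.4 to 25.0 CPM. The whole-punch spread of Rgs9 thus lay mostly in the striatal-type nuclei. As mean differences of log2(CPM + 1), stress RE minus control RE was 1.07 and 1.63 for Ppp1r1b, 1.01 and 1.66 for Adora2a and 0.83 and 1.31 for Rgs9 within batches 2 and 3, and batch 1 held no control RE mouse.

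Arpp21 had the smallest unadjusted p of the 9 genes in whole punches. It had 559 to 669 CPM in NP, 608 to 703 CPM in control RE and 671 to 802 CPM in stress RE mice. The lowest stress RE value (670.6 CPM) lay just above the highest NP value (669.1 CPM). The share of all genes with ranges this far apart was not taken, so the gap is not read as a result. The log2 fold change of stress RE minus NP was 0.30 (standard error 0.09, edgeR adjusted p = 0.999). The difference of log2(CPM + 1) for this contrast was 0.41, 0.08 and 0.27 within batches 1, 2 and 3. Of the 50 pathway genes, 2, 3 and 3 had an unadjusted p under 0.05 in the 3 contrasts, against 830, 188 and 843 of all 21160 genes. None of the 50 was called, against 0.00473%, 0% and 0% of all genes.

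Across the 28 classes, the genes whose level followed the mean of the z-scored members most closely were Zar1l (Pearson r = 0.88), Serpina9 (0.86), Gm50169 (0.83), Gm26907 (0.83) and Drd1 (0.82), given as a description over classes that share libraries. For single members the nearest genes were Ric8b for Rgs9 (0.80), Nrg2 for Gnal (0.85), Sh2d5 for Pde10a (0.87), Lingo1 for Arpp21 (0.87), Ppp1r2 for Adora2a (0.80), Gsg1l for Pde1b (0.75), Nt5e for Adcy5 (0.69), Ebf1 for Rasgrp2 (0.79) and 1700003D09Rik for Ppp1r1b (0.96). Among the members themselves, the highest correlations over classes were between Gnal and Pde1b (0.70) and between Pde1b and Rgs9 (0.65), and the lowest between Ppp1r1b and Arpp21 (-0.21).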

How the data were processed

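The authors deposited UMI counts per gene and nucleus, made from 10x Chromium libraries, for 15 mice; per the submitters' processing notes Cell Ranger 7.1.0 and Seurat were used, with mm10 and GRCm39 both named as builds. The counts were not normalised and gave the depth. Their gene identifiers and positions were matched to GENCODE on GRCm38.

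Nuclei with at least 200 genes and at most 5% mitochondrial UMIs were kept, and the highest scrublet scores were removed as doublets (0.8% per 1000 barcodes). Clustering (scanpy 1.11.5, Python 3.11.15) used 2000 variable genes, 30 components, 15 neighbours and Leiden resolution 1, without the 9 genes, Drd1 and Drd2. A cluster of at least 50 nuclei was named where at least 3 markers had 5 CPM or more and were at least 2-fold above other clusters, with a mean log2 fold of at least 2. Otherwise it kept its number.

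Counts were summed per mouse and class with at least 10 nuclei. Genes were filtered (filterByExpr), scaled (TMM) and tested with the quasi-likelihood test of edgeR 4.0.16 (R 4.3.3), and p-values were adjusted over all genes by Benjamini-Hochberg. Standard errors were the size of the log2 fold change divided by the square root of F. DESeq2 1.42.0 was an alternative. A call is an adjusted p under 0.05. The comparison of Drd2 with Drd1 nuclei had mouse as a block, because both sums come from the same animals. Neighbouring classes were said to differ where their means were farther apart than the larger SD, with no test. The relation over mice used log2(CPM + 1), genes with at least 15 UMIs and 100000 permutations. It was adjusted over all genes tested and not over the 9 genes alone as first planned. A depth limit is 3 counts of the class total and covers counting error only. The code was tested on simulated data.

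The 9 genes and all lists were chosen with earlier results of these data known. The 9 genes were all named, with the 5 pathway genes of highest striatal-type level, up to 10 called pathway genes of largest change and the genes most alike over classes. Mice were the replicates in the comparisons of the 3 groups.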

Additional observations from a re-analysis of the deposited data

Results flagged for a closer look

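Of 54 groups of mice examined for a single value far from the rest, 7 held one, and chance gives about 1 in 20 for independent groups. These groups are not independent, since they take the 9 genes in the same mice, in whole punches and in the oligodendrocytes within them. The 7 are therefore not set against that rate. All but one of the 7 values belonged to NP mouse 35. In whole punches it had 13.3 CPM of Ppp1r1b (other NP mice 1.11 to 4.68 CPM), 213.6 CPM of Gnal (132 to 154 CPM), 106 CPM of Rgs9 (15.0 to 43.4 CPM) and 7.74 CPM of Adora2a (0.279 to 2.61 CPM). In oligodendrocytes it had 6.18 CPM of Ppp1r1b (0.517 to 2.25 CPM) and 1.74 CPM of Adora2a (0 to 0.430 CPM). The other value was that of stress RE mouse 75, with 81.1 CPM of Pde1b in the whole punch against 37.2 to 46.7 CPM in the other stress RE mice. Both mice held the most striatal-type nuclei, 432 and 823.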

How the results depend on the processing

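With no filter on low counts, 3 members were called by class for stress RE minus control RE (Ppp1r1b in the striatal-type class, Pde10a in vascular leptomeningeal cells and in choroid plexus) and 1 for stress RE minus NP (Pde10a in vascular leptomeningeal cells), against 0 in both with the filter; over all genes the fit without the filter called 0.0961% and 0.0435% of tests, and the cause was not tested. Without the mouse block, 1 member (Adora2a) was called higher in Drd2 nuclei in place of 4, and 2.53% of all genes in place of 5.77%: Gnal had a log2 fold change of 0.27 (edgeR adjusted p = 0.112), Pde10a 0.15 (0.366) and Rasgrp2 0.36 (0.230). Leaving out 1 mouse at a time gave 0 to 0 members called in each group contrast, by class and in whole punches (15 fits). The share of all genes called in those 15 fits is not given here, so these counts are not read as a result about the members. Between Drd2 and Drd1 nuclei, leaving out 1 mouse gave 3 to 4 members called higher in Drd2 nuclei and 0 to 0 higher in Drd1 nuclei (8 fits, with 4.87% to 5.96% and 5.15% to 6.45% of all genes called). Pde10a was lost without control RE mouse 87 (0.14, edgeR adjusted p = 0.0600) or stress RE mouse 43 (0.12, 0.108).

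Of 594 alternative values of the 27 whole-punch differences, none of which was called, 39 changed sign, in 13 differences, and the largest of these was 0.30 (edgeR adjusted p from 0.526 to 1). The planned division of libraries by gate nuclei gave no value, since all 15 held at least 10. The division by gate nuclei inside the striatal-type class was chosen after seeing the data. Set at 1 nucleus it gave 11 libraries with and 4 without, at 20 nuclei or without removal of doublets 8 and 7, and in oligodendrocytes 0 members had ranges that did not overlap under each of these, against 0.076%, 0.0326% and 0.0264% of all genes. In fits that included batch, 0 members were called in each group contrast, by class and in whole punches. The share of all genes called in these batch fits is not given here, so the 0 is not read as a result about the members. Mice of different groups share no replicate numbers, so no other pairing was fitted between groups. Depth limits Adora2a outside the striatal-type class. It rests on 1 to 7 counts per mouse in pericytes and smooth muscle and on 61 UMIs over all 15 mice in oligodendrocytes. The group tests within the striatal-type class rest on 2 NP, 3 control RE and 3 stress RE mice.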
